A study of Rattus norvegicus with 2 samples.

Results

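The genes of transforming growth factor beta (TGF-beta) and bone morphogenetic protein (BMP) signalling were compared between irradiated and non-irradiated rat skin. The 41 members were chosen by name: 7 ligands, 4 latent binding proteins, 7 receptors and co-receptors, 6 Smad proteins that carry the signal, 9 inhibitors inside the cell or at its membrane, 2 secreted BMP antagonists, 4 Id genes and 2 genes of matrix-associated proteins. All 41 were found by symbol among the 22312 genes of the deposited table. They fill 42 of its 22714 rows, since Tgfbr1 has a further row that is at 0 in both libraries.

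The irradiated library came from skin of male Sprague-Dawley rats, 4 weeks of age, irradiated 1 time with 45 Gy by a 6 MeV electron beam at 750 cGy per minute. The other library came from skin of a non-irradiated area, with the same strain, sex and age. Each group had 1 library, so no test of the condition was possible, and every difference below describes these 2 libraries. The interval between irradiation and sampling, the number of animals and any pooling do not appear in the descriptions, nor is it said whether the non-irradiated area belonged to irradiated animals; both libraries carry the same treatment text. The title of the irradiated library holds the letters NC with no explanation, and the groups follow the source labels.

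In this pathway, TGF-beta is secreted in a latent complex that latent TGF-beta binding proteins tether to the matrix, and it acts once it is released. Ligands bind paired type I and type II receptors, which phosphorylate receptor-regulated Smads. Smad2 and Smad3 serve mainly TGF-beta, and Smad1, Smad5 and Smad9 serve mainly BMPs; both sets join Smad4 and enter the nucleus. Inhibitory Smads, nuclear corepressors and ubiquitin ligases restrain the signal. In skin, TGF-beta is known for its part in fibroblast activation and fibrosis, and BMPs for their part in hair follicle cycling and epidermal differentiation.

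The irradiated library held an estimated 11197446 reads on genes, and the non-irradiated one 12649576. The tissue label was checked against markers. No marker of basal or differentiating keratinocytes, hair follicle, sebaceous gland or fibroblasts was at 0 in either library. Both libraries were rich in muscle, with 20 skeletal muscle markers at 36.5% of the reads in irradiated and 40.0% in non-irradiated skin. All 6 measured basal keratinocyte markers and all 9 measured hair follicle markers were at least 2-fold higher in irradiated skin, with summed levels of 1164 against 63.9 FPKM and 467 against 74.7 FPKM. FPKM relates reads to transcript length and library size. None of the 8 fibroblast markers reached 2-fold, with a summed level of 817 FPKM in irradiated and 1193 FPKM in non-irradiated skin. In bulk tissue, a change in the number of cells of a type and a change in RNA per cell cannot be told apart.

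Most measured members lay within 2-fold between the libraries. Of the 41, 34 had the higher level in irradiated skin and 7 the lower: Tgfb1, Tgfb3, Acvrl1, Smad6, Smad7, Ski and Ctgf. Among all genes with reads, 71.2% had the higher level in irradiated skin. Under a trimmed-mean scaling of the libraries 28 members were higher and 13 lower, against 55.5% of all genes higher. The size of a difference was taken as log2((irradiated FPKM + 1)/(non-irradiated FPKM + 1)), and a gene was counted as measured when its mean over both libraries was at least 1 FPKM. This filter kept 29 members and left out 12. Of the 29, Tgif1, Bmp7 and Bambi stood 2-fold or more above non-irradiated skin, and 0 stood 2-fold or more below it. Over all 9743 measured genes, 9.70% were past 2-fold upward and 1.53% past it downward, or 11.2% in either direction, so the members' counts lay close to the background. Without the filter the members' counts were the same 3 and 0, against 7.13% and 1.07% of all genes with reads. A 1.5-fold rule took in 8 members upward, adding Bmpr1a, Smad2, Smad4, Smad5 and Id2, and Tgfb3 downward, against 23.8% and 5.22% of all measured genes. The members' median log2 ratio was 0.29, against 0.21 for all measured genes.

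Bmp7, Smad5 and Tgif1 passed the filter through the irradiated library alone, since they lay below 1 FPKM in non-irradiated skin. Of the 26 members with at least 1 FPKM in both libraries, Bambi was the single one past 2-fold, against 5.57% of all such genes. At a stricter filter, a mean of 5 FPKM or more, 10 members remained and 0 of them reached 2-fold, since Bmp7, Tgif1 and Bambi all averaged less. With the median ratio of all genes set to 0, the split over all genes was 686 higher and 250 lower, against 945 and 149 as deposited; under the trimmed-mean scaling it was 640 and 298.

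**Figure D1:**
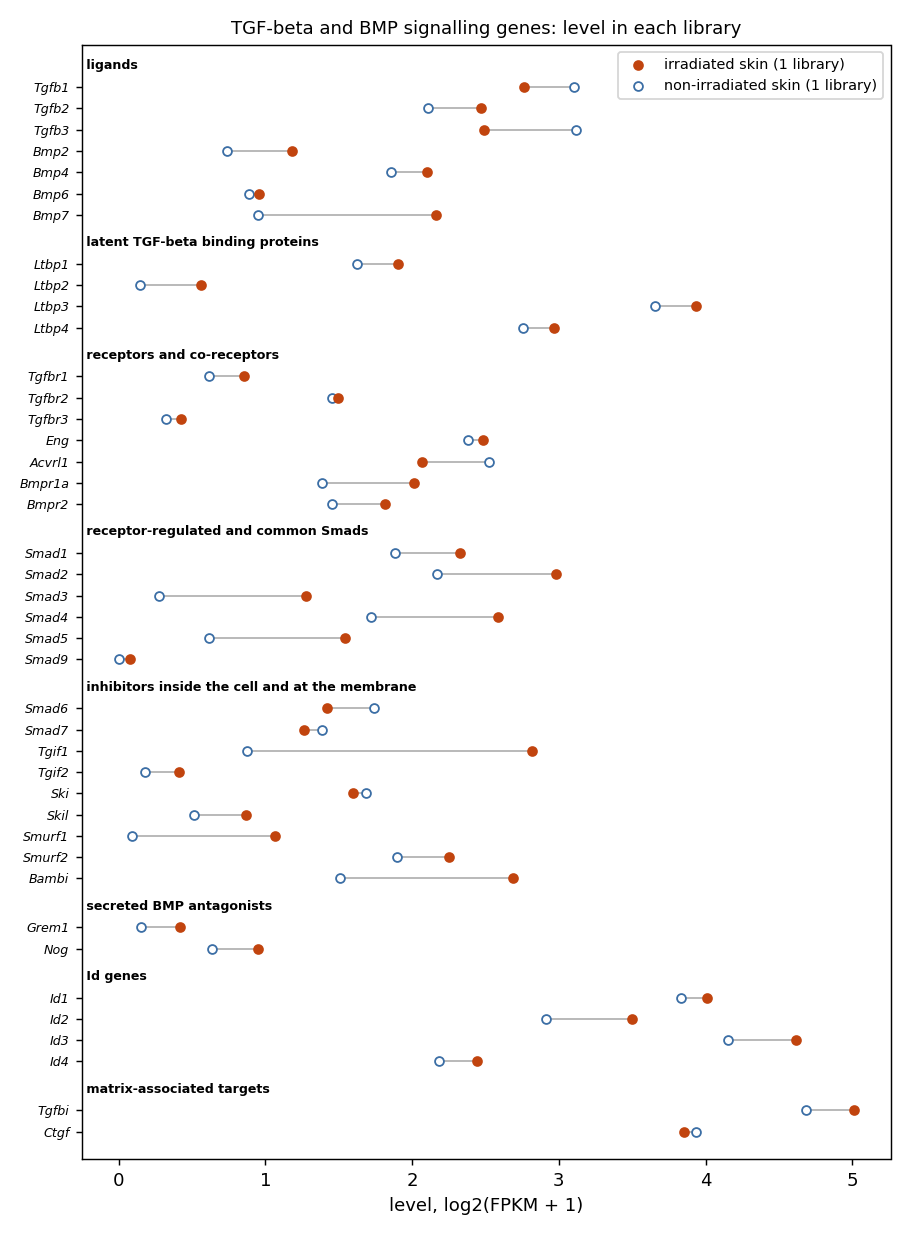
Level of each of the 41 members as log2(FPKM + 1), by role, in the irradiated library (filled red) and the non-irradiated library (open blue), with 1 library per group and no error bars. The gaps are widest for Tgif1 (6.05 against 0.830 FPKM) and Bmp7 (3.47 against 0.933 FPKM), while Tgfb1, Tgfb3, Acvrl1, Smad6, Smad7, Ski and Ctgf lie to the left in irradiated skin.

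**Figure D2:**
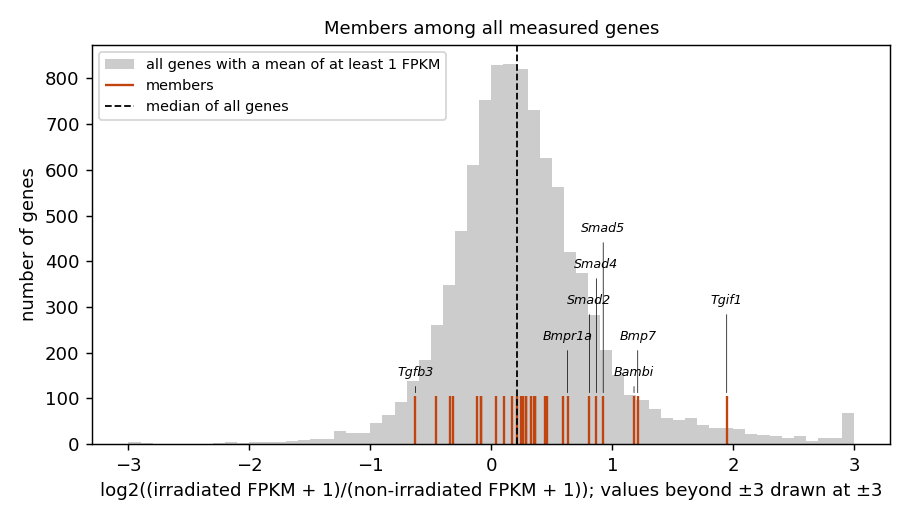
Distribution of log2((irradiated FPKM + 1)/(non-irradiated FPKM + 1)) over 9743 measured genes (grey bars, number of genes), with the 29 measured members as red ticks and the median of all genes as a dashed line; values beyond the axis are drawn in the end bars. The members spread over the body of the distribution; Tgif1 lies at 1.95 and Tgfb3 at -0.63.

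Among the TGF-beta ligands, the balance of the 3 isoforms differed between the libraries. Tgfb1, the isoform most often tied to fibrosis, stood at 5.79 FPKM on 92 reads in irradiated and 7.61 FPKM on 135 reads in non-irradiated skin. Tgfb3 stood at 4.60 FPKM on 140 reads in irradiated and 7.66 FPKM on 259 reads in non-irradiated skin. Its log2 ratio of -0.63 is the lowest of the measured members, and 4.65% of all measured genes had a lower one. Tgfb2 went the other way, at 4.54 FPKM on 152 reads in irradiated and 3.30 FPKM on 123 reads in non-irradiated skin. In irradiated skin Tgfb2 made up 30.4% of the summed FPKM of the 3 isoforms, against 17.8% in non-irradiated skin. The share of Tgfb3 was 30.8% in irradiated and 41.2% in non-irradiated skin.

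Counting error was taken as a 95% exact Clopper-Pearson interval of the log2 ratio of scaled counts, the authors' counts after scaling, with no pseudocount. It covers counting error only and holds no variation between animals. PCR copies are not independent molecules, so it may be too narrow. The interval was -1.05 to -0.44 for Tgfb3, -0.80 to -0.01 for Tgfb1 and 0.10 to 0.81 for Tgfb2. The intervals of Tgfb2 and Tgfb3 did not overlap. The directions of all 3 isoforms held under every scaling tried. Under the trimmed-mean scaling, however, the log2 ratio of Tgfb2 was 0.11. The shift of that scaling, 0.31, exceeds the lower bound of Tgfb2, so its direction is within counting error there. The 8 fibroblast markers were lower in sum in irradiated skin, at 817 against 1193 FPKM, and their part in the lower Tgfb3 and Tgfb1 was not tested.

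Of the 4 BMP ligands, Bmp7 differed most. Bmp7, a BMP of epithelial tissues (ENSRNOG00000007108, chromosome 3, 176945361 to 177020736 on the minus strand of a build that the sources do not name), stood at 3.47 FPKM on 97 reads in irradiated and 0.933 FPKM on 29 reads in non-irradiated skin. The log2 ratio was 1.21, and the counting interval of the scaled counts was 1.28 to 2.54. Under the trimmed-mean scaling the log2 ratio was 0.97, just below 2-fold. Bmp4, which dermal cells of the follicle produce, was close in both, at 3.29 FPKM in irradiated and 2.62 FPKM in non-irradiated skin (interval -0.27 to 0.91). Bmp2, made in the follicle and in dermal fat, stood at 1.27 FPKM on 17 reads against 0.670 FPKM on 10 reads. Bmp6, a BMP also made in the epidermis, had 23 reads in each library. Neither passed the filter. Bmp7 made up 38.7% of the summed FPKM of these 4 ligands in irradiated skin and 18.4% in non-irradiated skin, where Bmp4 led with 51.7%. The keratinocyte, hair follicle and sebaceous gland markers were higher in the same library, and their part in the level of Bmp7 was not tested.

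Of the latent TGF-beta binding proteins, the 3 measured ones lay within 2-fold. Ltbp3, which pairs with latent TGF-beta in the matrix, had the highest level of the 4, at 14.3 FPKM in irradiated and 11.6 FPKM in non-irradiated skin. Ltbp4, tied to elastic fibre assembly, stood at 6.83 FPKM against 5.74 FPKM, and Ltbp1 at 2.75 FPKM against 2.08 FPKM. Their log2 ratios of 0.29, 0.22 and 0.28 lay near the median of all genes; under the trimmed-mean scaling those of Ltbp3 and Ltbp4 turned to -0.0037 and -0.05, while that of Ltbp1 was 0.06. Ltbp2, a matrix protein that does not bind latent TGF-beta, was low, at 0.473 FPKM on 37 reads in irradiated and 0.104 FPKM on 9 reads in non-irradiated skin. It lay below the filter, and its counting interval was 1.11 to 3.42.

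The receptors lay within 2-fold or below the filter. Tgfbr2, the type II receptor of TGF-beta, stood at 1.82 FPKM on 43 reads in irradiated and 1.75 FPKM on 46 reads in non-irradiated skin. Its partner Tgfbr1 stood at 0.808 FPKM on 55 reads and 0.529 FPKM on 40 reads. The co-receptor Tgfbr3, betaglycan, stood at 0.342 FPKM on 16 reads and 0.250 FPKM on 13 reads. The counting intervals of these 3 genes included 0, so a difference was not detectable at this depth. Bmpr1a, a type I BMP receptor with known roles in the follicle, had the highest ratio of the member receptors, with 3.04 FPKM on 107 reads in irradiated against 1.61 FPKM on 63 reads in non-irradiated skin (log2 0.63, interval 0.45 to 1.39). Bmpr2, the type II BMP receptor, stood at 2.52 FPKM and 1.74 FPKM (log2 0.36). The Bmpr2 locus overlaps LOC100364176 on the opposite strand, which stood at 288 FPKM against 62.5 FPKM. The libraries were stranded, per the labels' protocols, but the sources do not say if strand entered the counting. If it did not, reads of the overlapping genes could not be told apart, so the value of Bmpr2 is uncertain.

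The receptors of endothelial cells gave unequal values. Acvrl1, the type I receptor ALK1 of vessels, stood at 3.20 FPKM on 149 reads in irradiated and 4.75 FPKM on 246 reads in non-irradiated skin. The log2 ratio was -0.45, with an interval of -0.88 to -0.27. Its co-receptor Eng, endoglin, was nearly equal at 4.60 FPKM and 4.21 FPKM on 141 and 143 reads. The interval of Eng, -0.22 to 0.47, does not overlap that of Acvrl1. Under the trimmed-mean scaling the log2 ratio of Eng turned from 0.10 to -0.15, where that of Acvrl1 was -0.69. The 9 endothelial markers summed to 27.1 FPKM in irradiated and 39.3 FPKM in non-irradiated skin, with 2 of 7 measured ones at least 2-fold lower and none at 0; their part in the Acvrl1 value was not tested.

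**Figure D3:**
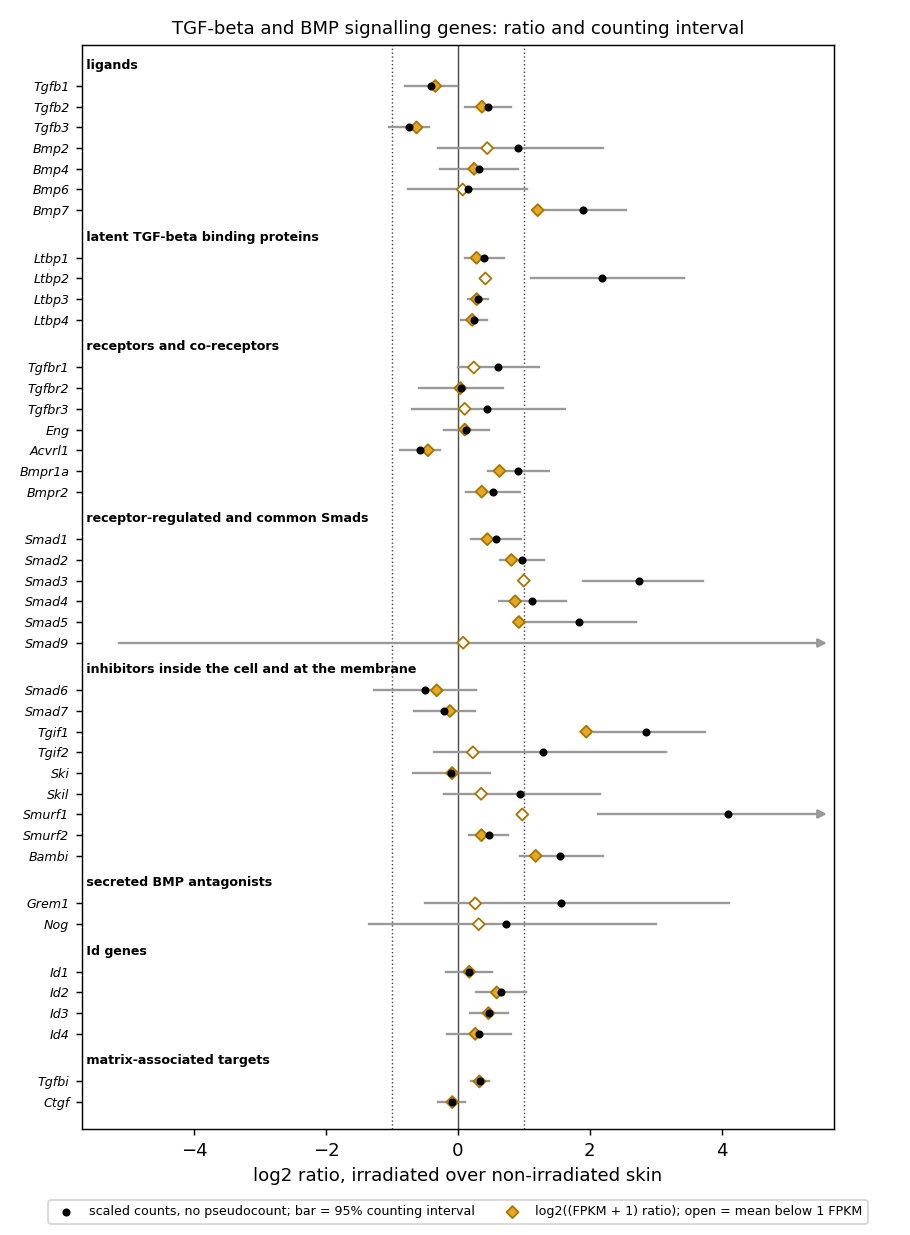
Log2 ratio of irradiated over non-irradiated skin for each member by role: black points are ratios of scaled counts with no pseudocount and grey bars their 95% counting intervals (arrows pass the axis), diamonds are log2 ratios of FPKM + 1, open where the mean is below 1 FPKM. Dotted lines mark 2-fold. Smad1 to Smad5 lie right of 0 with their bars, those of Smad6 and Smad7 reach across it, and genes of low level have long bars.

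The Smads that carry the signal were higher in irradiated skin in both branches, each by less than 2-fold on the FPKM + 1 scale. Smad2 stood at 6.90 FPKM on 209 reads in irradiated and 3.50 FPKM on 118 reads in non-irradiated skin (log2 0.81). Smad4, the common partner, stood at 5.01 FPKM on 100 reads and 2.29 FPKM on 51 reads (log2 0.87). Smad1, of the BMP branch, stood at 4.03 FPKM on 140 reads and 2.69 FPKM on 104 reads (log2 0.45). Smad5, of the same branch, stood at 1.91 FPKM and 0.532 FPKM (log2 0.92). Smad3, the partner of Smad2, had 79 reads in irradiated and 13 in non-irradiated skin, at 1.42 FPKM and 0.210 FPKM. Its mean lay below the filter; its log2 ratio was 1.00, a little under the 2-fold rule, and the interval of its scaled counts was 1.896 to 3.72. The log2 ratios of these 5 genes exceeded those of at least 67.9% of all measured genes. Together Smad1 to Smad5 summed to 19.3 FPKM in irradiated and 9.23 FPKM in non-irradiated skin. Smad9, the third Smad of the BMP branch, had 1 read in irradiated and 0 in non-irradiated skin, where 3 reads would give 0.153 FPKM, so no fold is given.

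The directions of Smad1, Smad2, Smad4 and Smad5 held under every scaling tried, at log2 ratios of at least 0.20. For Smad1 the shift of the trimmed-mean scaling, 0.31, exceeds the lower bound of the counting interval, 0.20. With a pseudocount of 0.1 FPKM Smad4 and Smad5 passed 2-fold as well, and Smad5 also passed it with the libraries scaled to genes outside the muscle markers (log2 1.08) and in the scaled counts with a pseudocount of 10 (log2 1.34). The estimated reads of Smad5 were not whole, at 50.5 and 15.7, so reads may be shared with another locus and its value is uncertain. The Smad3 locus overlaps Aagab on the opposite strand, which stood at 6.18 FPKM against 3.16 FPKM. As for Bmpr2, it is not said if strand entered the counting, so the value of Smad3 is uncertain.

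The inhibitory Smads stood lower in irradiated skin, in the values as deposited by no more than the counting error. Smad7, which blocks the TGF-beta receptor and is itself switched on by TGF-beta, stood at 1.40 FPKM on 72 reads in irradiated and 1.61 FPKM on 92 reads in non-irradiated skin. Smad6, its counterpart for BMP signals, stood at 1.68 FPKM on 25 reads and 2.34 FPKM on 39 reads. Their log2 ratios were -0.12 and -0.32, and both counting intervals included 0 (-0.67 to 0.26 and -1.28 to 0.27). Under the trimmed-mean scaling, whose shift of 0.31 exceeds both upper bounds, the log2 ratios were -0.29 and -0.51. The upper bound for Smad7 lay below the lower bounds of Smad2, Smad3, Smad4 and Smad5, at 0.64, 1.896, 0.62 and 0.96, while that of Smad1, at 0.20, lay below it, so the intervals of Smad1 and Smad7 overlapped.

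Tgif1 had the largest ratio of the measured members. It encodes a homeodomain corepressor that binds Smad2 and Smad3 (ENSRNOG00000015906, chromosome 9, 118636411 to 118648690, minus strand). It stood at 6.05 FPKM on 98 reads in irradiated and 0.830 FPKM on 15 reads in non-irradiated skin. The log2 ratio of 1.95 exceeded that of 97.5% of all measured genes and stayed between 1.68 and 2.73 over the settings that keep the gene. Its relative Tgif2 was low, on 11 and 5 reads. Of the corepressors Ski and Skil, Ski was close in both, at 2.03 FPKM in irradiated and 2.22 FPKM in non-irradiated skin, and Skil lay below the filter on 19 and 11 reads.

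Bambi, a decoy receptor that lacks the kinase domain and damps TGF-beta and BMP signals, stood at 5.43 FPKM on 82 reads in irradiated and 1.84 FPKM on 31 reads in non-irradiated skin (ENSRNOG00000016066, chromosome 17, 54939071 to 54943877, minus strand). The log2 ratio was 1.18, with an interval of 0.94 to 2.20 for the scaled counts. It was below 2-fold, at a log2 ratio of 0.92, under the trimmed-mean scaling, and also with the median ratio of all genes set to 0. The ubiquitin ligases that mark Smads and receptors for breakdown were unequal. Smurf2 stood at 3.77 FPKM on 218 reads and 2.72 FPKM on 175 reads (log2 0.36). Smurf1 had 31 reads in irradiated and 2 in non-irradiated skin, at 1.09 FPKM and 0.0633 FPKM, and its interval was 2.13 to 7.21. It lay below the filter, and its log2 ratio of 0.98 on the FPKM + 1 scale understates the difference in reads.

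Bmp7, Tgif1 and Bambi were higher in the library in which 6 of 6 basal keratinocyte, 7 of 7 differentiating keratinocyte, 9 of 9 hair follicle and 6 of 6 sebaceous gland markers were at least 2-fold higher. The summed levels of the differentiating keratinocyte and sebaceous gland lists were 2099 against 153 FPKM and 203 against 17.7 FPKM. The part of these cells in the 3 genes was not tested.

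The secreted BMP antagonists among the members were near the limit of detection. Nog, noggin, had 6 reads in irradiated and 4 in non-irradiated skin, and Grem1, gremlin, had 8 and 3. Both intervals included 0, so no difference was detectable at this depth.

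The Id genes encode dominant negative partners of basic helix-loop-helix factors and are known direct targets of BMP signalling. Id1, Id2 and Id3 were among the most abundant members. Id3 stood at 23.6 FPKM in irradiated and 16.8 FPKM in non-irradiated skin, Id1 at 15.1 FPKM and 13.3 FPKM, Id2 at 10.3 FPKM and 6.53 FPKM, and Id4 at 4.44 FPKM and 3.53 FPKM. All 4 were higher in irradiated skin and within 2-fold, with log2 ratios of 0.17 to 0.59; under the trimmed-mean scaling, and with the median ratio of all genes set to 0, that of Id1 turned negative. In the values as deposited, the intervals of Id2 and Id3 lay above 0, at 0.27 to 1.03 and 0.19 to 0.76. Those of Id1 and Id4 included 0. Under the trimmed-mean scaling the log2 ratios of Id2 and Id3 were 0.31 and 0.17. The shift of that scaling, 0.31, exceeds both lower bounds.

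Genes of matrix-associated proteins that TGF-beta is known to raise lay well within 2-fold. Tgfbi, a secreted adhesion protein, was the most abundant member, at 31.2 FPKM on 979 reads in irradiated and 24.7 FPKM on 861 reads in non-irradiated skin (log2 0.33). Ctgf, the matricellular connective tissue growth factor, stood at 13.5 FPKM on 361 reads and 14.3 FPKM on 428 reads (log2 -0.09, interval -0.30 to 0.11). The interval of Tgfbi was 0.20 to 0.47, so both intervals lay well inside 2-fold. Both ratios depended on the scaling. With the median ratio of all genes set to 0 they were 0.08 for Tgfbi and -0.32 for Ctgf. Under the trimmed-mean scaling they were 0.03 and -0.37.

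Promoter sequences are shown for 5 members, chosen to span the values described above: Smad2 and Smad3, higher in irradiated skin, Smad7, which was not, Bambi, at least 2-fold higher, and Id1, the BMP target with a ratio nearest to that of all genes. Each runs from 250 bases before to 50 bases after the start of the gene in RefSeq, build GRCr8, and 35 of the 41 members had an entry. Capitals mark the letters GGCGCC, a core of the GC-rich motif known to bind BMP Smads, and CAGAC or its complement GTCTG, the core known to bind Smad3 and Smad4. The positions are chr18:72125094-72125393 (plus strand) for Smad2, chr8:73132275-73132574 (minus) for Smad3, chr18:71263258-71263557 (plus) for Smad7, chr17:58820954-58821253 (minus) for Bambi and chr3:161671314-161671613 (plus) for Id1.
Smad2: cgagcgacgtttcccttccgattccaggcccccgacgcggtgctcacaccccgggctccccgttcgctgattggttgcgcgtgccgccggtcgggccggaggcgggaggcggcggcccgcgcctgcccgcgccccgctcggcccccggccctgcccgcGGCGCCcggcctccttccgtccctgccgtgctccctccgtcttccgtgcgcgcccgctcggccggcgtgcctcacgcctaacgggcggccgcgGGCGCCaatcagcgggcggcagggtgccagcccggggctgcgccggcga
Smad3: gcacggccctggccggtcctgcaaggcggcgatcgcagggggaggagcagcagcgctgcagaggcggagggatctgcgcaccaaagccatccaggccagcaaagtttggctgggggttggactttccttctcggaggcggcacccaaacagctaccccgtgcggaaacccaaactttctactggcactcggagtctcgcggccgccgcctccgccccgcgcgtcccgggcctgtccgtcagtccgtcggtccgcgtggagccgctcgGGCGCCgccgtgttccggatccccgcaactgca
Smad7: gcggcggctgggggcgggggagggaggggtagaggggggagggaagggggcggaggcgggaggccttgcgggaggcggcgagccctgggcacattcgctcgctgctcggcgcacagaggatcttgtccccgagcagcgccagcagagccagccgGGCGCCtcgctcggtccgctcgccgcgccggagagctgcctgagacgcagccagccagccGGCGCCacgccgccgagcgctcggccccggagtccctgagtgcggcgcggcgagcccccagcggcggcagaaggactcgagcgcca
Bambi: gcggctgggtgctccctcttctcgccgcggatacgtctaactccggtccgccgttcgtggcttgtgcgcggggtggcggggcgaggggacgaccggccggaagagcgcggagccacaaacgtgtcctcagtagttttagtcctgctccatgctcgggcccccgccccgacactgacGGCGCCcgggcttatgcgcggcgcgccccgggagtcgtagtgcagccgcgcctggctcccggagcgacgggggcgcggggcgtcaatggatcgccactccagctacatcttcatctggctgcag
Id1: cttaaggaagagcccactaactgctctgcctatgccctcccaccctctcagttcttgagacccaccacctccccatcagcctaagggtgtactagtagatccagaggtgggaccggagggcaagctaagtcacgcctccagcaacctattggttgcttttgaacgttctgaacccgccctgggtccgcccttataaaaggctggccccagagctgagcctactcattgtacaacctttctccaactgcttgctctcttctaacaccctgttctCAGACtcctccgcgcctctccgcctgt

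GGCGCC, which reads the same on both strands, occurred 2 times each in the Smad2 and Smad7 windows, and 1 time each in those of Smad3 and Bambi. Over the members it was present in 13 of 35 windows (37.1%), against 11.8% of 27457 promoters of the same length. CAGAC or GTCTG was present in 10 of 35 windows (28.6%), Id1 among them, against 13720 of the 27457 promoters (50%). The palindrome GTCTAGAC was present in 0 of 35 windows and in 0.215% of all. GTCTAGAC holds neither CAGAC nor GTCTG, and none of the marked matches overlap. The members' windows were richer in G and C, with a median of 66.7% against 52.3% over all promoters, and the part of base composition in these shares was not tested.

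Beyond the members, 84 further genes of the pathway were taken by role, of which 80 matched the table and 52 were measured. Of the genes reported here, 8 were higher and 1 was lower in irradiated skin past 2-fold, against 9.70% and 1.53% of all measured genes. Their median log2 ratio was 0.0875, against 0.21 for all measured genes. Sostdc1, Thbs1 and Lemd3, among the 8, passed the filter through the irradiated library alone, since they lay below 1 FPKM in non-irradiated skin.

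Among the secreted antagonists, Sostdc1 had the highest ratio of the further pathway genes. Sostdc1, a BMP and Wnt antagonist of skin appendages, stood at 5.78 FPKM on 104 reads in irradiated and 0.399 FPKM on 8 reads in non-irradiated skin (log2 2.28). Fst, follistatin, which binds activins, stood at 6.76 FPKM and 2.83 FPKM (log2 1.02), just past 2-fold. Its counting interval, 0.66 to 1.85, reached below 2-fold. Values of the further genes under the other scalings are not given here. Nbl1 had the highest mean of this list, at 31.4 FPKM and 39.6 FPKM. Of the 8 measured antagonists reported here, 2 were at least 2-fold higher, against 9.70% of all measured genes.

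Of 4 further measured ligands, Mstn, the myostatin of skeletal muscle and the most abundant of them, stood at 6.58 FPKM on 207 reads in irradiated and 27.7 FPKM on 969 reads in non-irradiated skin. Its log2 ratio was -1.92, with an interval of -2.30 to -1.86. The skeletal muscle markers summed to 375981 FPKM in irradiated and 400894 FPKM in non-irradiated skin, with 3 of 20 (Myh1, Myh2 and Mb) past 2-fold upward and 0 downward. Markers of fast fibres gave mixed values. Myh4, Actn3 and Atp2a1 were lower by less than 2-fold, with log2 ratios of -0.66, -0.72 and -0.74. Myh1 and Myh2, also of fast fibres, were higher, at 1.29 and 1.37, while Mylpf and Tnnc2 stood at 0.19 and -0.19. The part of muscle in the Mstn value was not tested. None of the 6 measured further receptors passed 2-fold, against 11.2% of all measured genes in either direction. Rgma, a BMP co-receptor, had the highest mean of these receptors, at 7.68 FPKM and 7.61 FPKM.

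Of 7 measured genes listed under release and activation of latent TGF-beta, only Thbs1, thrombospondin 1, passed 2-fold. The share over all measured genes in either direction was 11.2%. Thbs1 stood at 2.04 FPKM on 52 reads in irradiated and 0.176 FPKM on 5 reads in non-irradiated skin. Itgb1, a beta integrin subunit with the highest mean of this list, stood at 34.8 FPKM and 33.4 FPKM.

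Of 15 measured regulators inside the cell, 2 passed 2-fold, against 11.2% of all measured genes in either direction. Both encode known inhibitors of Smad signalling. Pmepa1, a target of TGF-beta that sequesters Smad2 and Smad3, stood at 19.0 FPKM on 121 reads in irradiated and 5.71 FPKM on 41 reads in non-irradiated skin. Lemd3, an inner nuclear membrane protein that binds Smads, stood at 2.81 FPKM on 103 reads and 0.491 FPKM on 20 reads. The list's median was -0.09, and its most abundant gene, Strap, which stabilises Smad7 at the receptor, stood at 63.7 FPKM and 65.0 FPKM.

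Of 12 measured genes known to respond to TGF-beta or BMP, 3 were at least 2-fold higher in irradiated skin and none at least 2-fold lower. Over all measured genes these shares were 9.70% and 1.53%. The list's median log2 ratio was 0.22, against 0.21 for all measured genes. Msx2, a homeobox gene of the follicle and a BMP target, stood at 6.57 FPKM on 147 reads in irradiated and 1.24 FPKM on 31 reads in non-irradiated skin; it is also on the hair follicle marker list. Tagln, a smooth muscle protein induced by TGF-beta, stood at 51.3 FPKM and 15.3 FPKM. The smooth muscle and pericyte markers, Tagln among them, summed to 75.3 FPKM and 22.8 FPKM, with 3 of 7 measured ones at least 2-fold higher; their part was not tested. Cdkn1a, a cell cycle inhibitor that p53 also induces, stood at 57.9 FPKM and 17.7 FPKM. Col1a1, the most abundant gene of this list, stood at 186 FPKM in irradiated and 224 FPKM in non-irradiated skin (log2 -0.27).

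**Figure D4:**
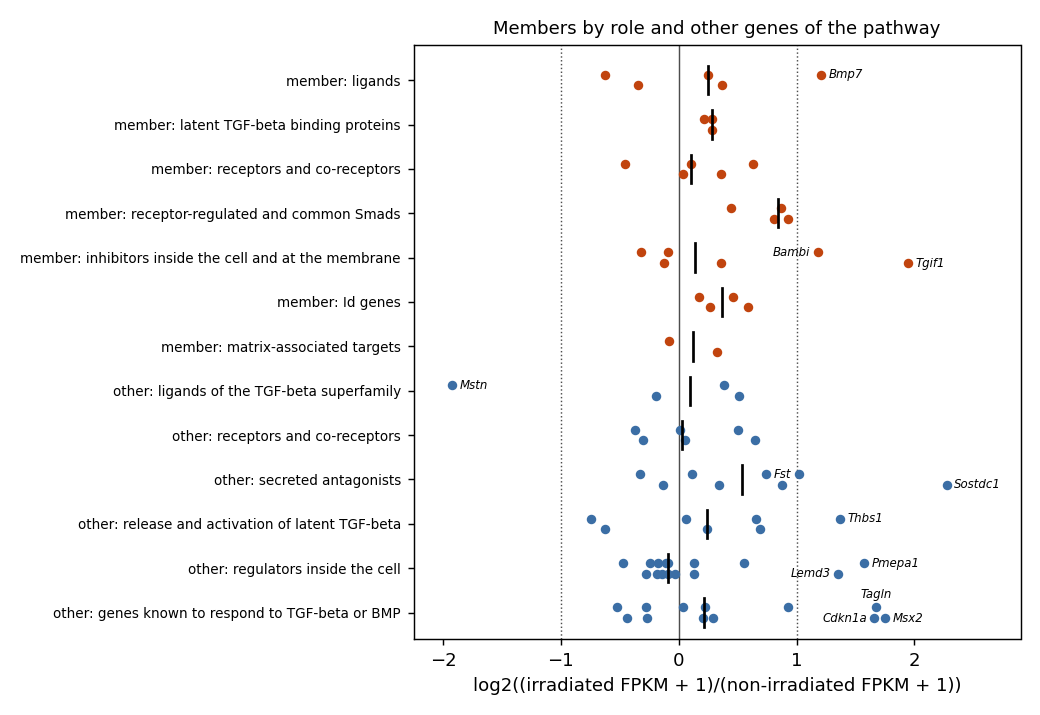
Log2((irradiated FPKM + 1)/(non-irradiated FPKM + 1)) of each measured gene by role, members in red and other pathway genes in blue, with the list median as a black bar and dotted lines at 2-fold; the small vertical offset of points only separates them. The signal-carrying Smads have the highest list median, at 0.84, while Mstn, at -1.92, is the single plotted gene past the lower line.

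The deposited table labels 82 genes with the TGF-beta signaling pathway, 30 of the members among them. Of the 33 measured genes with this label that are not members, 3 were past 2-fold upward and 0 downward. The shares over all measured genes were 9.70% and 1.53%. The 3 genes were Fst, Myc and Thbs1, of which Fst and Thbs1 were already counted above. The median log2 ratio of the 33 was 0.20, against 0.21 for all measured genes.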

How the data were processed

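Total RNA of 2 skin libraries was depleted of ribosomal RNA and sequenced from stranded libraries, per the labels' protocols. Cuffdiff, Cufflinks, HISAT2 (2.0.4) and cutadapt (1.9.3) are listed, with no role or order, per the submitters' processing notes; the build is not given in the sources used here. The authors deposited FPKM values, and count columns that hold a scaled signal, not raw counts. Of the values of that deposited signal above 0, 97.7% (irradiated) and 98.0% (non-irradiated) were whole multiples of 1 step, within 0.01 of a read plus 1e-05 per read. Dividing by the steps, 1.05 and 0.951, gave the estimated reads. No count model was run, since there is 1 library per group; p-values were not computed.

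Rows of 1 symbol were summed, low genes were left out below a mean of 1 FPKM, and ratios used a pseudocount of 1 FPKM, which understates differences of low genes. Intervals are exact Clopper-Pearson intervals (SciPy 1.17.1); for members, log2 ratios of FPKM and of scaled counts differed by at most 0.0299. Steps were tested on simulated data. The members, and the lists of other pathway genes and markers, were chosen with earlier results of these data known. Every member may be named; of the other lists, each measured gene past 2-fold and the one with the highest mean. Some genes and results are not reported here and are left out of the list counts. Marker genes Acta2, Krtdap and Adgre1 matched no gene. Alternatives in pseudocount, filter, scaling, measure, row choice and fold rule were tried.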

Additional observations from a re-analysis of the deposited data

How the results depend on the processing

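The count of members at least 2-fold higher was 3 as reported, 5 with a pseudocount of 0.1 FPKM, 0 of 10 with a mean of at least 5 FPKM, 1 under the trimmed-mean scaling and 8 under a 1.5-fold rule, where 23.8% of all genes passed. Members at least 2-fold lower numbered 0 under every setting with the 2-fold rule; 1, Tgfb3, passed the 1.5-fold rule, against 5.22% of all genes. The members' median log2 ratio of 0.29 was 0.0845 with the median of all genes set to 0 and 0.0262 under the trimmed-mean scaling, which took 0.31 off every log2 ratio before the pseudocount. Over all genes, 945 were higher and 149 lower as reported. These counts were 1562 and 252 with the smaller pseudocount, 321 and 84 with the higher filter, and 2315 and 509 under the 1.5-fold rule. The lower genes numbered 250 with the median set to 0, 298 under the trimmed-mean scaling and 224 when scaled to genes outside the muscle markers. The higher filter tests fewer genes. By construction, the 1.5-fold rule takes in every gene past 2-fold, and a smaller pseudocount widens ratios. The median and trimmed-mean settings lower the irradiated values. For the muscle-free scaling the cause was not tested. Signs of single members turned for 4 genes with the median set to 0, 5 under the trimmed-mean scaling and 1 (Tgfbr2) under the muscle-free scaling, all within 2-fold. No paired analysis was possible because each group has 1 library, and for the same reason no library could be left out. Depth limits genes on few reads, such as Nog, Grem1 and Smad9.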
